A study of Rattus norvegicus with 36 samples.

Results

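The 6 mature miRNAs rno-miR-6321, rno-miR-484, rno-miR-6315, rno-miR-1839-5p, rno-miR-1843-3p and rno-miR-1843-5p were followed through 36 small RNA libraries of the rat brain. They were chosen by their measured levels, out of 723 miRNAs counted, because earlier results of the same libraries had shown that the 3 brain regions of a rat agreed in them. How far the regions of a rat agree, and how much a level depends on region, chose these miRNAs and is therefore given as a description with no test. The libraries came from 12 male heterogeneous stock (HS) rats, an outbred stock in which every animal has its own mix of founder genomes. Each rat gave 1 library from the infralimbic cortex (IL), 1 from the prelimbic cortex (PL) and 1 from the nucleus accumbens (NAc, dissected whole). The abstinence group was 4 rats killed 4 weeks after the end of escalated intravenous cocaine self-administration. The withdrawal group was 4 rats killed in acute withdrawal from the same regimen, at 16 h by the sample labels and at 18 h by the study's methods. The naïve group was 4 rats that never received cocaine. Rats are named by their identifiers in the study: abstinence rats M170, M363, M472 and M456, withdrawal rats M153, M366, M172 and M154, and naïve rats M157, M378, M476 and M480. Wherever the values of a group of 4 are listed, they follow that order.

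A miRNA is cut from a hairpin transcript, loaded into an Argonaute protein, and pairs with messenger RNAs mainly through its seed (bases 2 to 8), which lowers their stability and translation. Most miRNA hairpins are released from a long nuclear transcript by the Microprocessor enzyme Drosha and are then trimmed by Dicer. The set departs from that route in several places: in mouse, the miR-484 precursor is a short capped transcript made without Drosha, and the genes of miR-1839 and miR-1843 are annotated as small Cajal body RNAs (Scarna15 and Scarna3), members of the box H/ACA family that guides pseudouridylation of spliceosomal RNA. The human counterpart of Scarna15 (ACA45) is processed into a miRNA by Dicer. The IL and PL are the ventral and dorsal parts of the rodent medial prefrontal cortex, and both project to the NAc, a hub of the reward circuit.

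The mature sequences, shown because the 6 miRNAs have no seed in common, are written 5′ to 3′ with the seed in capitals (RefSeq, GRCr8 assembly). All 6 members matched the reference, 4 by name and both arms of miR-1843 through a gene synonym, where the reference calls them miR-1843a.
rno-miR-6321: uACUGCAGugaguucuaugaagc
rno-miR-484: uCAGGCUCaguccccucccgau
rno-miR-6315: uCUGGACAggacaggcccugagc
rno-miR-1839-5p: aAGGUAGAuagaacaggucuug
rno-miR-1843-3p: uCUGAUCGuucaccuccauaca
rno-miR-1843-5p: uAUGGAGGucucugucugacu
The 6 mature miRNAs come from 5 genes. The mature miR-6321 lies at chr14:19743454-19743476 on the minus strand, within the span of Rufy3, a gene known for its part in neuronal polarity and axon growth. The mature miR-484 lies at chr10:1394915-1394936 (minus strand). miR-6315 lies at chr1:212793253-212793275 (minus strand) within Vps51, which encodes a subunit of the GARP and EARP tethering complexes. miR-1839-5p lies at chr1:144893859-144893880 (plus strand) in Scarna15. The 3p and 5p arms of miR-1843 lie at chr6:104955361-104955382 and chr6:104955400-104955420 (minus strand) in Scarna3, within Dcaf5, which encodes a substrate receptor of the CRL4 ubiquitin ligase. Each of these 3 host genes runs on the strand of its miRNA.

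For 2 genes the assignment of reads is uncertain, and the sequences concerned are shown for that reason. A second rat hairpin on chromosome 13 gives miR-1843b arms that the count table does not list.
rno-miR-1843b-3p: uCUGAUCGuuccccuccauac
rno-miR-1843b-5p: aUGGAGGUcucugucugacuuag
The 3p arm of miR-1843b has the seed of rno-miR-1843-3p and differs from it by A12C (positions counted from 1 at the 5′ end, the counted miRNA first), and the 5p arms share an unbroken run of 20 bases. Reads of the 2 hairpins could therefore be split or merged by the counting. The hairpin of miR-6321, 141 bases long, holds its mature sequence at bases 41 to 63 and again at bases 90 to 112 with 1 change, C3U, which falls in the seed.
miR-6321, second copy in its hairpin: uAUUGCAGugaguucuaugaagc
Among the rat mature miRNAs of the reference, the seed of miR-484 is shared by rno-miR-344a-5p, which was counted at 0.12 to 2.67 CPM. Its means over the 3 regions of M170 and M476, at 0.58 and 0.52 CPM, were within the 0.49 to 1.75 CPM of the other rats.

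The libraries held 6192155 to 18877136 counts (median 10739453.5), and levels are given as CPM (counts divided by the scaled library size in megareads) after TMM scaling of library sizes. All 6 miRNAs were among the 457 that passed a filter on low counts. RNA integrity numbers (RIN) were 7.4 to 9.3, and M363 had the lowest of any rat (7.4 to 8.1). The neuronal miR-128-3p was at 130242 to 553983 CPM and miR-124-3p at 2844 to 9497 CPM, and the erythrocyte marker miR-451-5p at 0 to 3.23 CPM. Markers of epithelial and sensory cells summed to 1406 CPM in withdrawal rat M172, against 29.4 to 104 CPM in the other 11 rats. No 2 replicate libraries were identical (54 pairs compared).

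Rats took a larger share of the variation in log2 CPM than regions for each of the 6 miRNAs. In each case 1 or 2 rats contributed much of the variation by rat. To describe this, the sum of squares of log2 CPM over the 36 libraries was split into region, group, rat within group and a remainder. The shares were not divided by degrees of freedom. Rats outnumber regions, so noise alone would give the rats the larger share. Rats accounted for 82.0% of it for miR-6321 and for 80.5% for miR-484, the 2 largest shares among the 457 miRNAs. For miR-6321 this rested on M157, whose value at a count of 0 is set by the prior count. Without M157 it was 17.9% (rank 206). The share was 61.1% for miR-6315 (rank 5), 54.2% for miR-1843-3p (rank 8), 44.2% for miR-1839-5p (rank 25) and 43.6% for miR-1843-5p (rank 28). The median over all 457 miRNAs was 16.7% by rat and 44.1% by region. Region accounted for 6.81% of miR-6321, 4.14% of miR-484, 18.9% of miR-6315, 14.98% of miR-1843-3p, 33.1% of miR-1839-5p and 7.66% of miR-1843-5p. Group accounted for 7.84% of miR-6321, 6.58% of miR-484, 9.38% of miR-6315, 12.7% of miR-1843-3p, 11.995% of miR-1839-5p and 26.99% of miR-1843-5p. The median share by group over all 457 miRNAs was 3.02%. For miR-6321, miR-484 and miR-1843-5p the share by group exceeded that by region. Within a rat, the highest region exceeded the lowest by a median of 4.19-fold for miR-6321 (11 rats with counts) and 2.35-fold for miR-1839-5p. The medians were 1.89-fold for miR-6315, 1.62-fold for miR-1843-3p, 1.52-fold for miR-484 and 1.44-fold for miR-1843-5p. For contrast, region accounted for 94.96% of miR-125b-2-3p and for 94.7% of miR-187-3p, the highest shares among miRNAs of a mean log2 CPM of at least 5. By the same cut on level, the largest rat shares outside the set were 69.6% for miR-493-3p, 53.96% for miR-34c-5p, 53.8% for miR-211-5p and 52.3% for miR-378b.

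**Figure D1:**
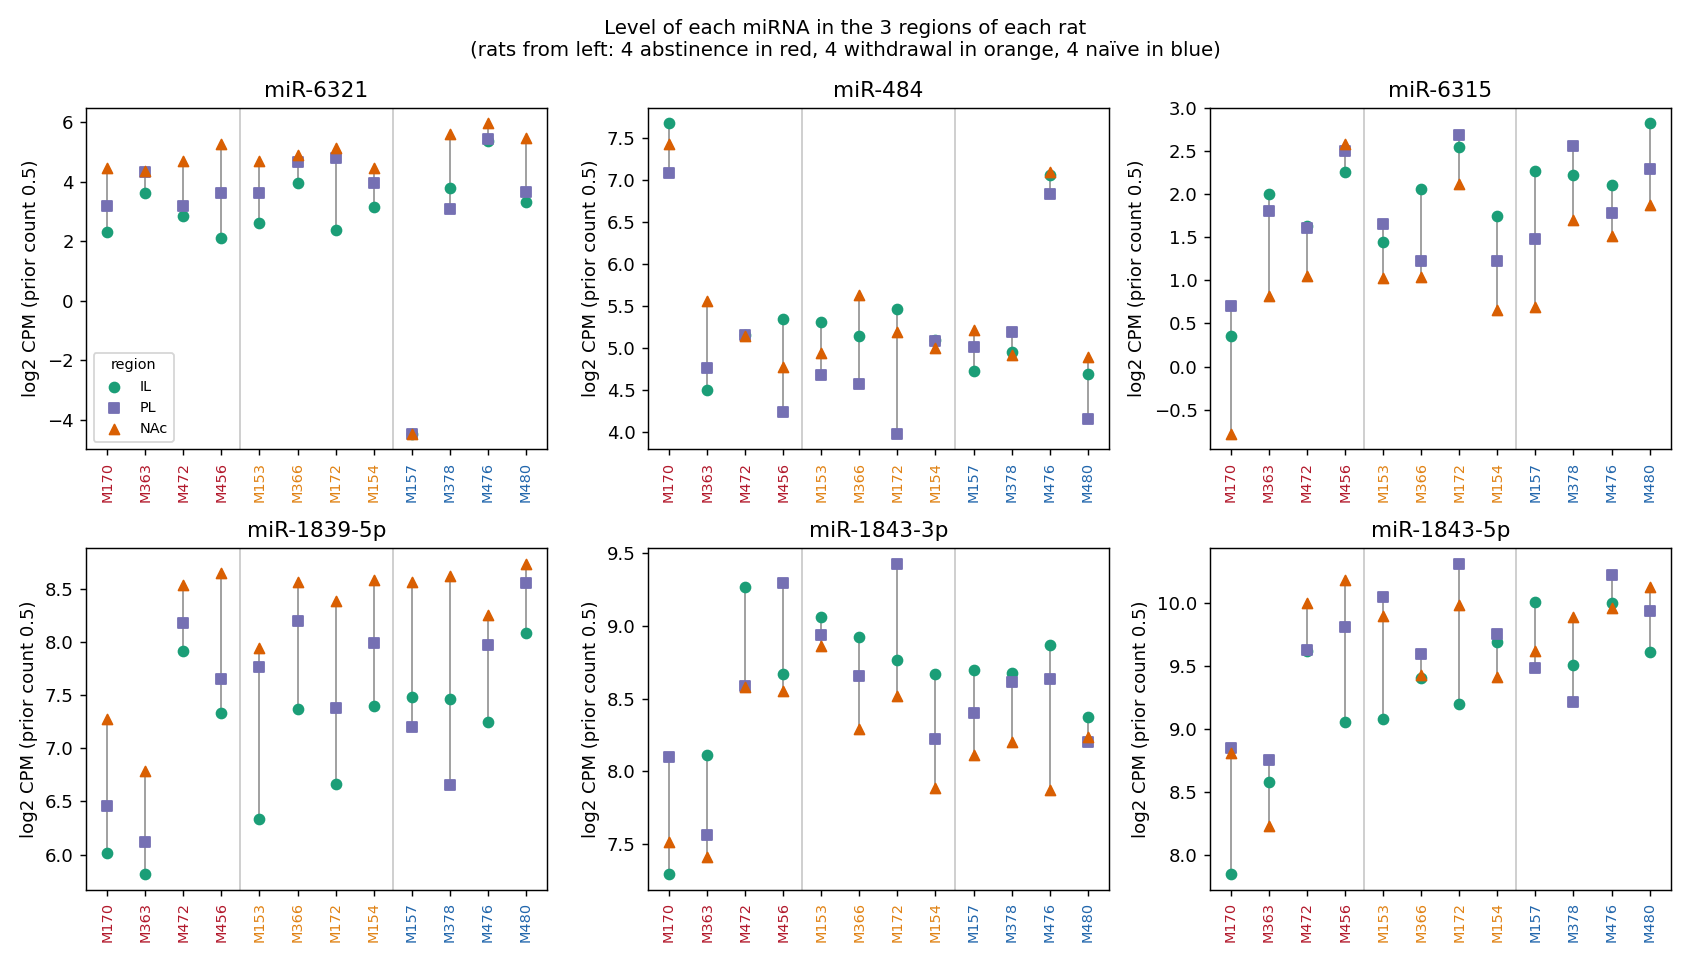
Log2 CPM (prior count 0.5) of the 6 miRNAs in the IL (circles), PL (squares) and NAc (triangles) of each of the 12 rats, with a grey line joining the regions of a rat. miR-484 was apart in M170 and M476, miR-6321 had no count in M157 (its points near -4.5 are set by the prior count), and miR-1839-5p and both arms of miR-1843 were lowest in M170 and M363.

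Without the 2 rats farthest from the median of the 12, the share by rat fell to 8.06% for miR-6321 (without M157 and M476), against a median of 14.98% over all 457 miRNAs in the same 10 rats, and its rank to 380. For miR-484 it fell to 15.2% (without M170 and M476, rank 225). It was 30.4% for miR-6315 without M170 and M172 (rank 82). Without M170 and M363 it was 23.5% for miR-1843-3p (rank 122), 21.1% for miR-1839-5p (rank 149) and 19.9% for miR-1843-5p (rank 162). In the remaining 10 rats region took a larger share than rat for miR-6321 (66.5%), miR-1839-5p (53.2%), miR-1843-3p (33.9%), miR-6315 (31.97%) and miR-484 (20.9%), and a smaller one for miR-1843-5p (18.3%). Over 12 rats the share by rat exceeded that by region for all 6 miRNAs, and in the remaining 10 for 1 of 6. Neither count compares the shares per degree of freedom. Which 2 rats were left out was set for each miRNA by its own values, so a fall was built in. The medians and ranks come from other miRNAs without those same rats, not without their own farthest 2. Ranks by rat share over remainder were 15 of 457 for miR-6315, 58 for miR-1839-5p and 66 for miR-1843-3p. They were 327 for miR-6321, 336 for miR-1843-5p and 403 for miR-484.

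**Figure D2:**
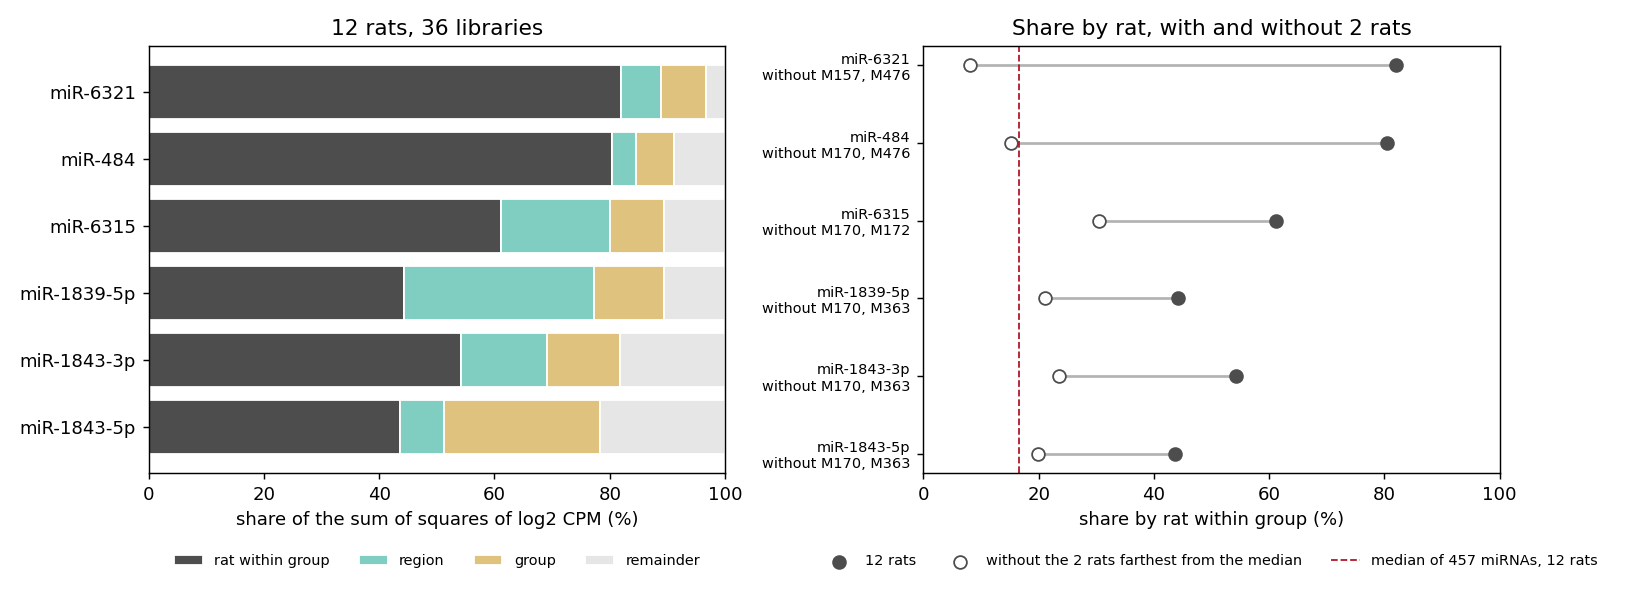
Left, share of the sum of squares of log2 CPM by rat within group, region, group and remainder over the 36 libraries. Right, the share by rat over 12 rats (filled) and without the 2 rats farthest from the median (open), with the median of 457 miRNAs over 12 rats as a dashed line at 16.7%. Every open point lies at 30.4% or below, against 43.6% to 82.0% for the filled points.

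miR-484 was set apart by 2 rats from different groups, abstinence rat M170 and naïve rat M476. IL levels of miR-484 were 205, 22.6, 35.6 and 40.8 CPM in abstinence rats, 39.6, 35.5, 44.2 and 34.2 CPM in withdrawal rats, and 26.4, 31.02, 134 and 25.9 CPM in naïve rats. PL levels of miR-484 were 136, 27.2, 35.8 and 18.96 CPM in abstinence rats, 25.7, 23.8, 15.8 and 33.97 CPM in withdrawal rats, and 32.3, 36.5, 114 and 17.9 CPM in naïve rats. NAc levels of miR-484 were 173, 47.5, 35.4 and 27.4 CPM in abstinence rats, 30.9, 49.7, 36.7 and 32.1 CPM in withdrawal rats, and 37.2, 30.3, 137 and 29.7 CPM in naïve rats. In every region M170 was the highest rat and M476 the second highest. The lower of the pair was 3.03-fold above the highest of the other 10 rats in the IL, 3.12-fold in the PL and 2.76-fold in the NAc. With the 3 regions summed, M170 had 169.6 CPM and M476 136 CPM, against 24.3 to 37.5 CPM in the other 10 rats. The 10 others spanned 15.8 to 49.7 CPM over the single libraries. Between the regions of a rat the highest and the lowest level differed by a median of 1.52-fold (1.01-fold in M472 to 2.80-fold in M172).

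miR-6321 was not detected in any region of naïve rat M157 and was highest in every region of naïve rat M476. IL levels of miR-6321 were 4.95, 12.3, 7.26 and 4.28 CPM in abstinence rats, 6.15, 15.6, 5.22 and 8.94 CPM in withdrawal rats, and 0, 13.97, 41.2 and 10.02 CPM in naïve rats. PL levels of miR-6321 were 8.99, 20.1, 9.03 and 12.4 CPM in abstinence rats, 12.2, 25.1, 27.9 and 15.5 CPM in withdrawal rats, and 0, 8.55, 43.5 and 12.6 CPM in naïve rats. NAc levels of miR-6321 were 22.3, 20.4, 26.04 and 38.8 CPM in abstinence rats, 25.8, 29.98, 34.9 and 21.97 CPM in withdrawal rats, and 0, 48.7, 62.8 and 44.7 CPM in naïve rats. M157 had 0 of 28785125 counts over its 3 libraries, which allows a level of up to 0.104 CPM (3 counts, summed over the rat), while the lowest of the other 11 rats had 14.3 CPM, at least 137-fold higher. By library, a count of 0 in M157 allows up to 0.376 CPM in the IL, 0.374 CPM in the PL and 0.181 CPM in the NAc. The lowest other rat was at least 11.4-fold, 22.9-fold and 113-fold higher than these limits in the IL, PL and NAc. These limits and folds cover counting error only. M476 was 2.64-fold above the next rat in the IL, 1.56-fold in the PL and 1.29-fold in the NAc, and 2.06-fold above it in the sum (53.6 against 26.1 CPM). In the other rats miR-6321 had a regional order. The NAc was above the IL and above the PL in 11 of 12 rats, M157 being the exception at 0 throughout. The NAc level was a median of 3.59-fold that of the IL and 2.11-fold that of the PL.

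miR-6315 was the least abundant of the set, at 7 to 71 counts per library, and was lowest in abstinence rat M170 in every region. IL levels of miR-6315 were 1.24, 3.94, 3.06 and 4.71 CPM in abstinence rats, 2.67, 4.14, 5.81 and 3.29 CPM in withdrawal rats, and 4.76, 4.63, 4.24 and 7.03 CPM in naïve rats. PL levels of miR-6315 were 1.58, 3.44, 3.01 and 5.59 CPM in abstinence rats, 3.09, 2.28, 6.37 and 2.296 CPM in withdrawal rats, and 2.74, 5.86, 3.397 and 4.86 CPM in naïve rats. NAc levels of miR-6315 were 0.538, 1.72, 2.02 and 5.94 CPM in abstinence rats, 1.98, 2.002, 4.303 and 1.53 CPM in withdrawal rats, and 1.57, 3.21, 2.81 and 3.61 CPM in naïve rats. M170 was 2.16-fold below the next lowest rat in the IL, 1.45-fold in the PL and 2.84-fold in the NAc. At these counts the exact binomial 95% interval of the NAc library of M170, 7 counts, ran from 0.216 to 1.11 CPM and overlapped that of the next lowest rat, M154 (0.946 to 2.34 CPM). Summed over the rat, M170 had 1.01 CPM and the other 11 rats had 2.30 to 5.48 CPM. The NAc was below the IL in 11 of 12 rats and below the PL in 11 of 12, with median ratios of 0.59 and 0.67. The exception in both counts was M456.

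The 3 miRNAs from small Cajal body RNA genes shared their low rats. For miR-1839-5p, miR-1843-3p and miR-1843-5p, abstinence rats M170 and M363 were the 2 lowest of the 12 in each of the 3 regions. IL levels of miR-1839-5p were 64.4, 56.4, 241 and 161 CPM in abstinence rats, 80.6, 165, 101 and 168 CPM in withdrawal rats, and 179, 177, 152 and 271 CPM in naïve rats. PL levels of miR-1839-5p were 87.6, 69.2, 289.6 and 201 CPM in abstinence rats, 216, 293, 167 and 254 CPM in withdrawal rats, and 147, 100.4, 251 and 376 CPM in naïve rats. NAc levels of miR-1839-5p were 155, 110.0, 369.6 and 399.7 CPM in abstinence rats, 246, 378.5, 334 and 383 CPM in withdrawal rats, and 379, 393, 304 and 426 CPM in naïve rats. The gap between the higher of this pair and the lowest of the other 10 rats was 1.25-fold in the IL, 1.15-fold in the PL and 1.59-fold in the NAc. Regions of a rat did not agree in level for this miRNA, since the NAc was above the IL and above the PL in 12 of 12 rats, by a median of 2.25-fold and 1.55-fold. What agreed was the place of the low rats within each region. The other arm, miR-1839-3p, had 98 counts over 36 libraries, against 96078 for the 5p arm, and did not pass the filter.

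IL levels of miR-1843-5p were 231, 383, 788 and 533 CPM in abstinence rats, 543, 679, 588 and 826 CPM in withdrawal rats, and 1032, 728, 1025 and 784 CPM in naïve rats. PL levels of miR-1843-5p were 463, 432, 794 and 899.5 CPM in abstinence rats, 1061, 777, 1275 and 867 CPM in withdrawal rats, and 717, 595, 1194 and 981 CPM in naïve rats. NAc levels of miR-1843-5p were 449.8, 301, 1028 and 1165 CPM in abstinence rats, 957, 690.1, 1013 and 683 CPM in withdrawal rats, and 788, 949.7, 998 and 1123 CPM in naïve rats. As the more abundant arm, miR-1843-5p summed to 402 and 398 CPM in M170 and M363, against 745.5 to 1101 CPM in the other 10 rats. Leading the others were withdrawal rat M172 in the PL, naïve rat M157 in the IL and abstinence rat M456 in the NAc. The top of the order thus changed with region, while the low pair stayed M170 and M363. Of the pair, M170 was the lower in the IL and M363 in the PL and NAc. IL levels of miR-1843-3p were 156.7, 277, 617 and 408 CPM in abstinence rats, 535, 486, 435 and 406 CPM in withdrawal rats, and 416, 410.1, 467 and 332 CPM in naïve rats. PL levels of miR-1843-3p were 275, 189, 386 and 629 CPM in abstinence rats, 490.0, 403, 690.2 and 299 CPM in withdrawal rats, and 338, 392, 398 and 294 CPM in naïve rats. NAc levels of miR-1843-3p were 182, 170.3, 383 and 376 CPM in abstinence rats, 465, 313, 366.4 and 237 CPM in withdrawal rats, and 277, 294, 234 and 302 CPM in naïve rats. Summed over the rat, the 3p arm had 204 CPM in M170 and 223 CPM in M363, against 299 to 498 CPM in the other 10 rats. The gap above the low pair was 1.20-fold in the IL, 1.07-fold in the PL and 1.28-fold in the NAc, smaller than the 1.39-fold, 1.29-fold and 1.52-fold of the 5p arm. RIN was 8.7 to 9.1 in M170 and 7.4 to 8.1 in M363, so the pair held the rat with the lowest RIN and one within the range of the rest. The part of RIN in these levels was not tested rat by rat.

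Ranked over the 12 rats, the regions agreed to different degrees. Spearman's rho between 2 regions was 0.64 to 0.83 for miR-6315, 0.66 to 0.71 for miR-1843-3p, 0.46 to 0.80 for miR-1839-5p, 0.20 to 0.69 for miR-1843-5p, 0.31 to 0.52 for miR-6321 and 0.23 to 0.46 for miR-484. The medians over the 457 miRNAs were 0.10 for IL and PL, 0.17 for IL and NAc and 0.16 for PL and NAc. For miR-484, Pearson's r of log2 CPM was 0.83 to 0.88 over the same rats, and for miR-6321 it was 0.95 to 0.96. In both, the regions agreed on the 1 or 2 rats that stood apart and less on the order of the others. Each correlation is over 12 rats and is given as a description.

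Whether cocaine history changed the level of a rat was asked with the 3 regions summed, so that each rat counted once. None of the 6 miRNAs passed the test in any of the 3 comparisons. In edgeR's quasi-likelihood test with Benjamini-Hochberg adjustment over 483 miRNAs, 0 of 18 member contrasts had an adjusted p under 0.05 (lowest 0.511), 0 had an unadjusted p under 0.05 (background 8.28% of all miRNAs in abstinence against naïve, 2.9% in withdrawal against naïve and 3.31% in abstinence against withdrawal), and 0 passed the study's thresholds of a 1.5-fold change with an unadjusted p under 0.05. By those thresholds the background was 2.07% of all miRNAs in abstinence against naïve, 1.86% in withdrawal against naïve and 1.86% in abstinence against withdrawal. Exact two-sided permutation tests of the rat means (mean log2 CPM of the 3 regions, 4 rats against 4, smallest possible p 0.0286) gave 0 of 18 under 0.05 (lowest 0.171), and in 0 of 18 did the groups fail to overlap. The exact tests were run on the members alone, so no share over all miRNAs stands beside these counts, and they do not set the members apart.

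miR-1843-5p came nearest. It averaged 645 ± 283 CPM in abstinence rats and 912 ± 149 CPM in naïve rats (SD, n = 4 each), a log2 fold change of -0.50 ± 0.26 (SE) with an edgeR adjusted p of 0.511 (exact permutation p = 0.171). This value depended on single abstinence rats. It was -0.33 without M170 and -0.29 without M363, the 2 low rats, and -0.68 without M472 (edgeR unadjusted p = 0.0236, adjusted p = 0.366) and -0.696 without M456 (edgeR unadjusted p = 0.0193, adjusted p = 0.530), both of which passed the study's thresholds. With the mean RIN of a rat as a covariate it was -0.33 (edgeR adjusted p = 0.999). In withdrawal rats it averaged 846 ± 85.0 CPM, and abstinence against withdrawal (-0.39 ± 0.26) passed only without M456 among the single rats left out (-0.59, edgeR unadjusted p = 0.0416, adjusted p = 0.914). miR-1839-5p averaged 194 ± 109 CPM in abstinence, 253 ± 57.6 CPM in withdrawal and 278 ± 54.5 CPM in naïve rats, and its log2 fold change of abstinence against naïve was -0.52 ± 0.34 (edgeR adjusted p = 0.528). It was -0.33 without M170, -0.24 without M363 and -0.32 with mean RIN as a covariate, while without M472 it was -0.83 and passed the study's thresholds (edgeR unadjusted p = 0.0315, adjusted p = 0.366). Both abstinence means combined the low M170 and M363 with M472 and M456, which were within the range of the other groups. miR-1843-3p averaged 337 ± 143 CPM in abstinence, 417 ± 84.4 CPM in withdrawal and 336 ± 30.3 CPM in naïve rats.

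The rats that stood apart fixed the sign of the miR-484 and miR-6321 contrasts. miR-484 averaged 67.8 ± 68.0 CPM in abstinence, 34.2 ± 2.47 CPM in withdrawal and 56.45 ± 53.3 CPM in naïve rats. Its log2 fold change in abstinence against naïve was 0.26 ± 0.61 (95% interval -1.11 to 1.64), -0.73 without M170 and 1.20 without M476, and the last of these passed the study's thresholds (edgeR unadjusted p = 0.0468, adjusted p = 0.590). Withdrawal against naïve gave -0.72 ± 0.61, and 0.19 without M476. Abstinence against withdrawal gave 0.99 ± 0.61, and -0.0087 without M170. miR-6321 averaged 17.3 ± 3.06 CPM in abstinence, 20.6 ± 4.59 CPM in withdrawal and 25.7 ± 21.9 CPM in naïve rats. Its log2 fold change was -0.57 ± 0.896 in abstinence and -0.32 ± 0.89 in withdrawal against naïve. Without M157, it was lower in abstinence than in naïve rats by the study's thresholds (log2 fold change -0.97, edgeR unadjusted p = 0.00539, adjusted p = 0.656) and lower in withdrawal than in naïve rats (-0.71, unadjusted p = 0.0280, adjusted p = 0.990). Without M476 the same contrasts were 0.12 and 0.37. miR-6315 averaged 3.07 ± 1.85 CPM in abstinence, 3.18 ± 1.40 CPM in withdrawal and 3.85 ± 0.97 CPM in naïve rats. Its log2 fold change of abstinence against naïve was -0.32 ± 0.42 (edgeR adjusted p = 0.741), -0.032 without M170 and -0.75 without M456 (edgeR adjusted p = 0.535). Fitted on the 36 libraries with the rat as a random block, the same contrast passed the study's thresholds (log2 fold change -0.64, limma-voom unadjusted p = 0.0383, adjusted p = 0.729). That fit used 1 within-rat correlation for all miRNAs, 0.117, while that of miR-6315 was 0.80. It therefore treated the 3 libraries of a rat as nearly independent, and its p-value is too small for this miRNA.

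**Figure D3:**
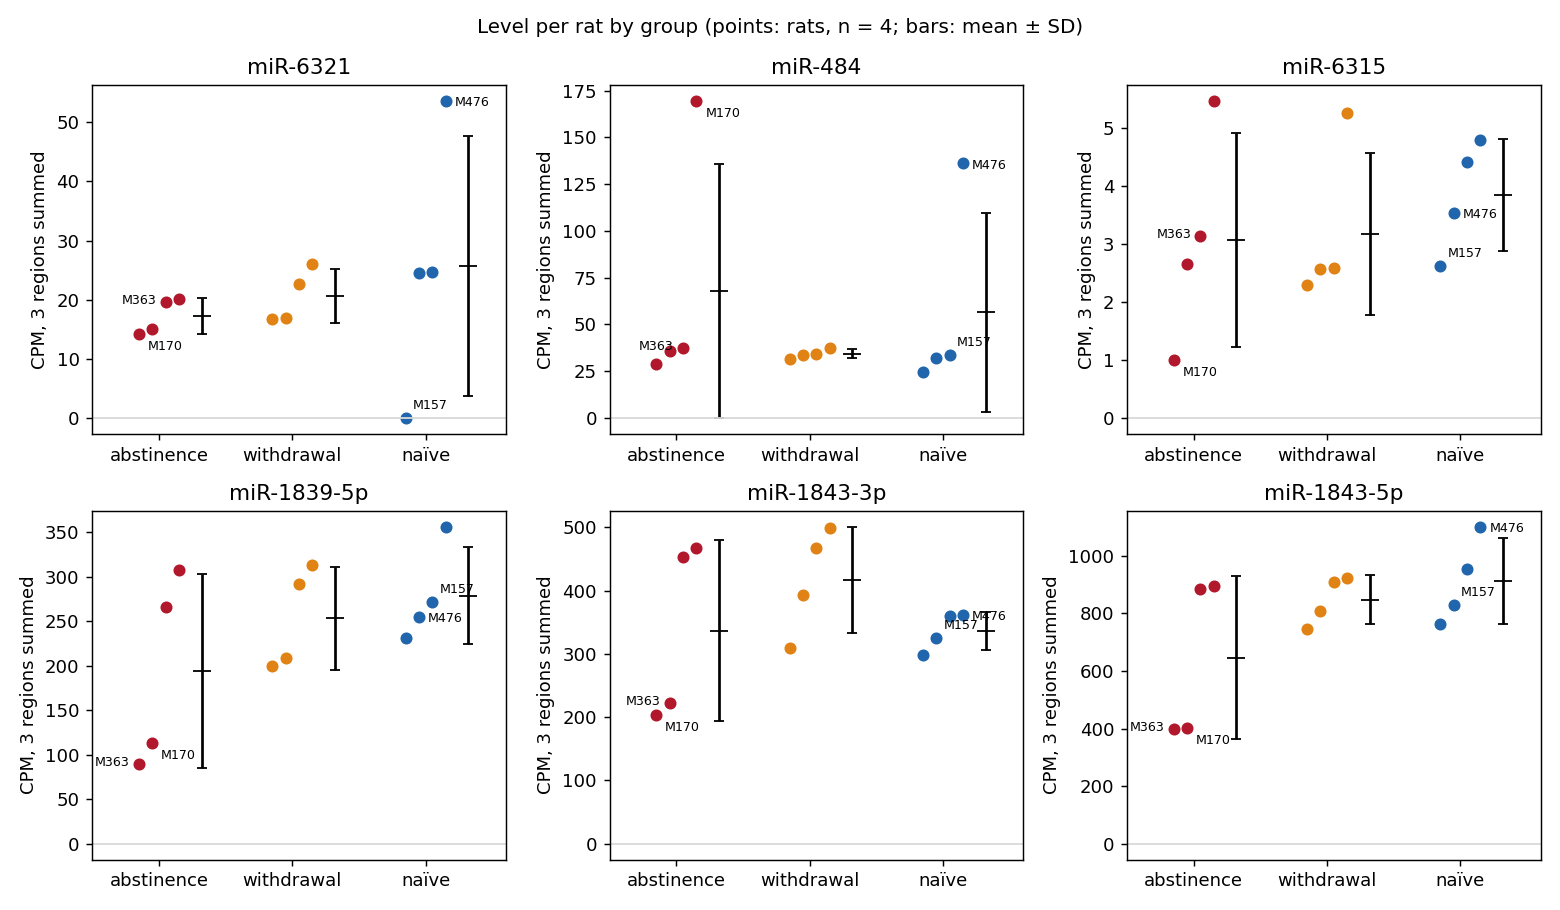
CPM of each rat with its 3 regions summed, for abstinence (red), withdrawal (orange) and naïve (blue) rats; points are rats (n = 4 per group) and bars are the mean ± SD. The groups overlap for all 6 miRNAs, and M170, M363, M157 and M476 are named where they fall.

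Within the regions, 1 of 54 member contrasts passed the study's thresholds. The study lists the same miRNA and contrast from the same libraries by limma-voom, so the pass is no separate finding. miR-1843-5p in the IL was lower in abstinence than in naïve rats, with a log2 fold change of -0.73 ± 0.33 (edgeR unadjusted p = 0.0366, adjusted p = 0.426), where 8.32% of all 457 miRNAs passed. Its IL levels, 231 to 788 CPM in abstinence rats and 728.5 to 1032 CPM in naïve rats, overlapped (exact permutation p = 0.0857, 4 rats against 4). Without M170 the log2 fold change was -0.46 (edgeR adjusted p = 0.755), without M157 it was -0.67 (adjusted p = 0.590) and without M476 it was -0.69 (adjusted p = 0.655), and it no longer passed the thresholds. In the other contrasts 0 of 6 members passed, beside 2.41% of all miRNAs in the PL and 1.09% in the NAc for abstinence against naïve. For withdrawal against naïve the background was 6.35% in the IL, 4.81% in the PL and 2.84% in the NAc, and for abstinence against withdrawal it was 6.35%, 3.5% and 0.875%. Adjusted p-values under 0.05 were reached by 0.219% of all miRNAs in the IL for abstinence against withdrawal and by 0% in the other 8 contrasts, with no member among them. None of the 54 exact permutation tests reached 0.05 (lowest 0.0857), again run on the members alone with no share over all miRNAs.

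Whether a change differed between 2 regions was tested in the same fit, which had no term for the rat and did not use the pairing of its regions. With RIN as a covariate, 0 of 54 member tests had an unadjusted p under 0.05. Of all miRNAs, 4.38% (NAc minus IL), 3.72% (NAc minus PL) and 8.53% (PL minus IL) did for abstinence against naïve, 1.09%, 7.44% and 10.5% for withdrawal against naïve, and 1.53%, 0.875% and 2.63% for abstinence against withdrawal. With the rat as a fixed block in place of RIN, 3 of 54 did and 0 had an adjusted p under 0.05. For withdrawal against naïve, PL minus IL, the standard error of miR-6321 was 1.41 without the block and 0.53 with it. That of miR-1839-5p was 0.64 and 0.31. The 0 of 54 without the block therefore cannot decide whether changes differed between regions. The change of miR-6321 in withdrawal against naïve was larger in the PL than in the IL by 1.24 ± 0.53 on the log2 scale (edgeR unadjusted p = 0.0295, adjusted p = 0.175) and smaller in the NAc than in the PL, by -1.09 ± 0.52 (edgeR unadjusted p = 0.0487, adjusted p = 0.405). That of miR-1839-5p was larger in the PL than in the IL by 0.81 ± 0.31 (edgeR unadjusted p = 0.0164, adjusted p = 0.159). These 2 of 6 members stood beside 25.4% of all miRNAs with an unadjusted p under 0.05 for the PL minus IL difference, and 1 of 6 beside 10.1% for the NAc minus PL difference. In the 7 other contrasts, where 0 of 6 members did, the share of all miRNAs was 1.09% (NAc minus IL) for withdrawal against naïve, 3.94%, 2.41% and 9.41% in the order above for abstinence against naïve, and 2.41%, 1.09% and 4.38% for abstinence against withdrawal.

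Both arms of miR-1843 were abundant enough to compare within a library, where their ratio needs no scaling. The 5p arm exceeded the 3p arm in all 36 libraries (3p over 5p 0.235 to 0.984). The ratio depended on region: it was higher in the IL than in the NAc in 12 of 12 rats, with medians of 0.697 in the IL, 0.479 in the PL and 0.357 in the NAc. In the IL the ratio ran from 0.678 to 0.782 in abstinence rats, from 0.492 to 0.984 in withdrawal rats and from 0.403 to 0.563 in naïve rats, so abstinence and naïve rats did not overlap there. They overlapped in the PL, where the ratio ran from 0.437 to 0.6995 in abstinence rats, from 0.345 to 0.541 in withdrawal rats and from 0.2996 to 0.659 in naïve rats. They also overlapped in the NAc, at 0.323 to 0.566 in abstinence rats, 0.346 to 0.486 in withdrawal rats and 0.235 to 0.351 in naïve rats. Averaged over the regions of a rat, the log2 ratio was -0.87 ± 0.05 in abstinence rats, -0.97 ± 0.28 in withdrawal rats and -1.39 ± 0.28 in naïve rats (SD, n = 4 each). M170 and M363, low in both arms, had ratios of 0.546 and 0.563, beside 0.521 and 0.557 in M472 and M456. The naïve rats had 0.406, 0.486, 0.329 and 0.324, so in this average abstinence and naïve rats did not overlap. The difference of 0.52 between abstinence and naïve reached the smallest p that 4 rats against 4 allow (exact permutation p = 0.0286), and 0.0857 after adjustment over the 3 contrasts. Without M170, M363, M472 or M456 in turn it was 0.51 to 0.54 (exact permutation p = 0.0571 each), and without any 1 naïve rat 0.44 to 0.64 (exact permutation p = 0.0286 each). Withdrawal against naïve gave 0.42 (exact permutation p = 0.0857) and abstinence against withdrawal 0.10 (exact permutation p = 0.714). With the median of the 3 regions in place of the mean, abstinence and naïve rats overlapped and the difference was 0.58 (exact permutation p = 0.0571). Reads of the miR-1843b arms, if counted, would enter both terms of the ratio.

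**Figure D4:**
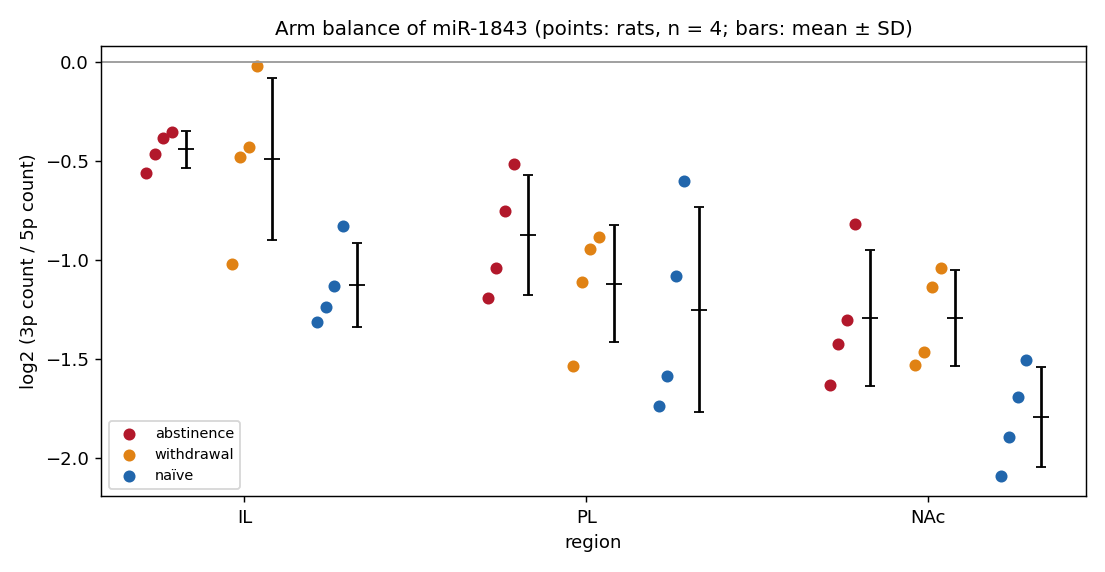
Log2 of the 3p count over the 5p count of miR-1843 in each library, by region and group; points are rats (n = 4) and bars are the mean ± SD. All points lie below 0, and in the IL the abstinence rats (0.678 to 0.782 as a ratio) lie above the naïve rats (0.403 to 0.563), while in the PL and NAc the groups overlap.

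The same few rats stood apart in several of the 6 miRNAs. M170 was the highest rat for miR-484, the lowest for miR-6315 and among the 2 lowest for the 3 miRNAs from small Cajal body RNA genes. M476 was the highest for miR-6321 and the second highest for miR-484. To ask whether the miRNAs ordered the rats alike, rat means of log2 CPM were correlated in all 15 pairs after removing group means. The permutations took these centred values as free, so the p-values are too small. With adjustment over the 15, 2 pairs passed by Pearson's r and 0 by Spearman's rho. With library totals alone in place of TMM scaling 3 passed by Pearson's r, the same 2 and miR-484 with miR-6315, and with group means kept 0 did. miR-1843-3p and miR-1843-5p had r = 0.86 (permutation adjusted p = 0.0087) and rho = 0.75 (adjusted p = 0.0716), and miR-1839-5p and miR-1843-5p had r = 0.81 (adjusted p = 0.0112) and rho = 0.73 (adjusted p = 0.0716). Both rested on the split of the abstinence group. Without M170 and M363, with group means taken again, r was 0.17 (permutation p = 0.642) for the arms of miR-1843 and 0.054 (permutation p = 0.881) for the other pair. With the group means of all 12 rats kept, r was 0.72 for the arms of miR-1843 without M170 and M363. For the other pair it was 0.63 without M363 and M472, the 2 rats farthest from the median of miR-1839-5p. Those 2 values keep the offset of the remaining abstinence rats from their group mean. In the 8 withdrawal and naïve rats, r was 0.17 (exact p = 0.686) and 0.030 (exact p = 0.941).

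In the 10 rats without M170 and M363 the third pair of this trio ran the opposite way. miR-1839-5p and miR-1843-3p had r = 0.60 over 12 rats (permutation adjusted p = 0.113), and without M170 and M363 they had r = -0.74 (permutation p = 0.00953, adjusted 0.0572) and rho = -0.92 (adjusted p = 0.00294 over the 6 relations computed this way). The 8 withdrawal and naïve rats, with r = -0.76 (exact p = 0.0235) and rho = -0.88 (exact p = 0.00724), are all among those 10. Their values are therefore no separate check. This split and the 6 relations, which overlap in their rats, were chosen after the values were seen. The adjustment over them does not cover the other pairs of members. The permutations took the centred values as free although group means had been removed. With M170 and M363 left out, the centred values of the remaining abstinence rats mirror each other. These p-values are therefore too small. miR-484 and miR-6315 had r = -0.67 over 12 rats (permutation adjusted p = 0.101), r = -0.77 with library totals alone (permutation adjusted p = 0.0122), and r = -0.68 (permutation p = 0.0324, not adjusted) among the 10 rats without M170 and M476.

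**Figure D5:**
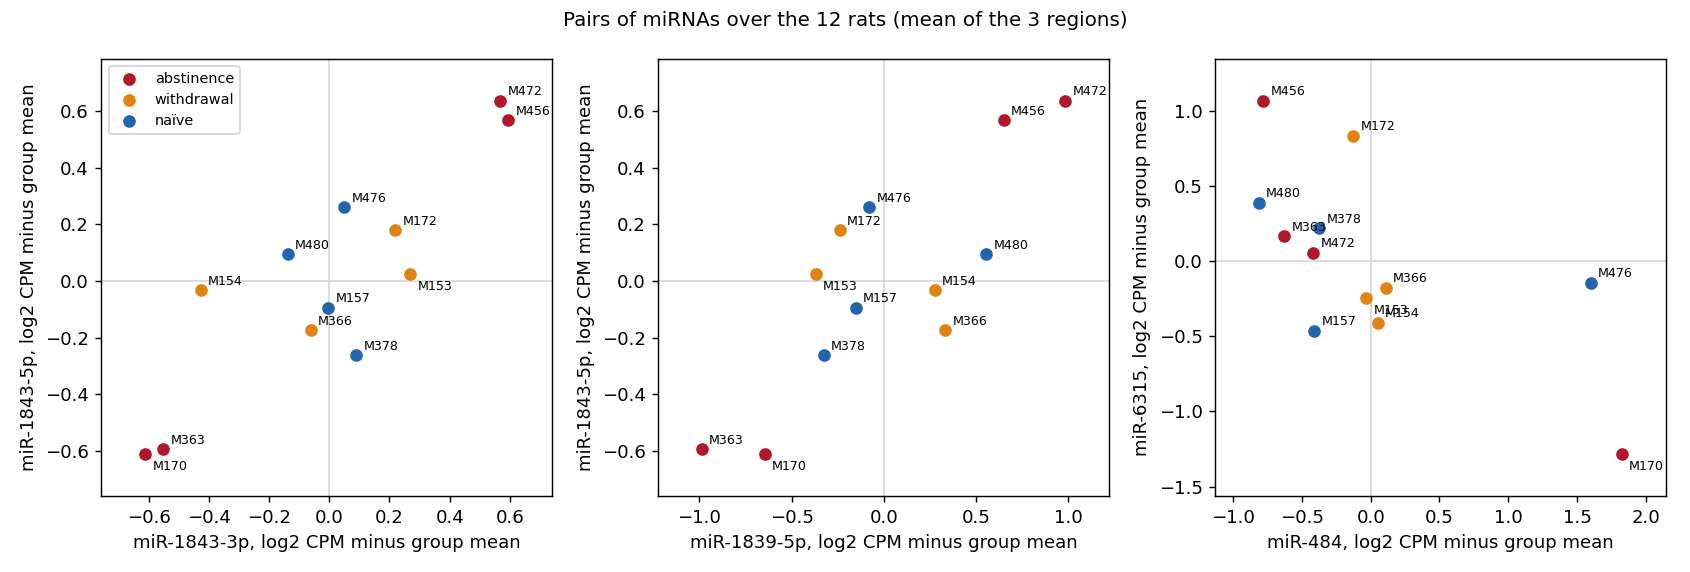
Rat means of log2 CPM over the 3 regions, minus the mean of the group, for 3 pairs of miRNAs; each point is 1 of the 12 rats, coloured by group. In the left and middle plots the abstinence rats form both ends (M170 and M363 against M472 and M456), and r was 0.86 and 0.81 with them, and 0.17 and 0.030 in the 8 other rats; on the right r was -0.67.

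Outside the set, the miRNAs most like each member were taken by Pearson's r over the 36 libraries, after removing region and group means, among miRNAs of a mean log2 CPM of at least 5. For miR-1843-5p these were miR-192-5p (r = 0.82) and miR-434-5p (r = 0.76), and for miR-1839-5p they were miR-379-3p (r = 0.78) and miR-30c-5p (r = 0.70). miR-192-5p, at 18.8 and 25.1 CPM in M363 and M170 as means of the 3 regions, was also lowest in these 2 rats (30.2 to 99.2 CPM in the others), as was miR-434-5p (616 and 818 CPM, against 841 to 1692 CPM). miR-379-3p was lowest in M363 (26.7 CPM), while M170 (47.2 CPM) was above withdrawal rat M153 (44.95 CPM). miR-30c-5p was lowest in M363 (1145 CPM) and not in M170 (2583 CPM). For miR-6315 the most like were miR-493-3p (r = 0.59) and miR-674-3p (r = 0.54), for miR-6321 miR-541-5p (r = 0.52) and miR-6331 (r = 0.48), for miR-1843-3p miR-192-5p (r = 0.50) and miR-344b-1-3p (r = 0.48), and for miR-484 miR-338-5p (r = 0.49) and let-7a-5p (r = 0.39). The 36 libraries share 12 rats, so these values are descriptions.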

How the data were processed

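Small RNA was sequenced from 36 libraries (12 rats, 3 regions). According to the authors, the CAP-miRseq workflow was used to align reads and count them on mature miRNAs; the study's methods name another build than the submitters' notes (mRatBN7.2, rn7), and tool versions are not given in the sources used here. The deposited values are raw counts, whole numbers with no normalization, for 723 miRNAs, of which 95 had none. Strand and multi-mapping settings were not given. Libraries were tied to rats by the sample labels and the study's sample list, except that the NAc library of M480 was tied to it by the design, as the rat listed without one. The members and lists were chosen with earlier results of these data known.

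Counts were scaled by TMM and filtered with filterByExpr (minimum count 10, minimum total 15), leaving 457 miRNAs, 99.9981% of all counts, or 483 for sums over rats. Log2 CPM used a prior count of 0.5. Tests used R 4.3.3 with edgeR 4.0.16 (quasi-likelihood), limma 3.58.1 and DESeq2 1.42.0, and Python 3.11.15 with numpy 2.4.6, scipy 1.17.1, pandas 2.3.3 and matplotlib 3.10.9. Sums of the 3 regions per rat were compared between 3 groups of 4 rats with no covariate, and the 36 libraries were fitted with 9 means and RIN. Scripts were tested on simulated data. Correlations used 100000 permutations, or all orders below 10 rats. Limits for a count of 0 use 3 counts and, like the exact binomial 95% intervals of a CPM, cover counting error only.

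The 3 libraries of a rat are paired by origin. Over all miRNAs, deviations from group means correlated between regions of a rat with a median r of 0.147 to 0.267, and the consensus within-rat correlation was 0.117; for the members it was 0.54 (miR-1843-5p) to 0.88 (miR-484). Besides the members, miRNAs were named as the other arm of a member's hairpin, as sharing its seed, as the 2 most like it over the 36 libraries, as the 4 largest shares by rat and 2 by region, or as cell type markers. Alternatives changed the scaling, filter, test, covariate, unit, prior count and rats; ranks over libraries, leaving out the 2 farthest rats, and correlations without M170 and M363 or without the abstinence group were added after seeing the data.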

Additional observations from a re-analysis of the deposited data

Results flagged for a closer look

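In groups of 4, a rat was singled out where its gap to the nearest of the others, divided by the range of the group, passed Dixon's 95% critical value for 4 values. Of 75 groups tested, 5 passed, close to the 1 in 20 that chance alone would give in independent groups. These groups were not independent, since means of the 3 regions were tested beside the single regions. The miRNAs were also chosen for the agreement of a rat's regions, so the 5 are listed as a description only. For miR-6321, naïve rat M157 was low in the mean log2 CPM of the 3 regions (-4.458, against 4.160 to 5.595 in the other 3 naïve rats) and in the NAc (-4.458, against 5.484 to 5.974); its count was 0 and the value is set by the prior count. For miR-484, abstinence rat M170 was high in the mean of the 3 regions (7.403, against 4.793 to 5.156 in the other 3 abstinence rats). Naïve rat M476 was high for miR-484 in the IL (7.065, against 4.697 to 4.957 in the other 3 naïve rats) and in the NAc (7.099, against 4.893 to 5.220).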

How the results depend on the processing

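Adjusted p-values under 0.05 for members stayed at 0 of 18 (rats summed) and 0 of 54 (within region) under every alternative run. Passes of the study's thresholds, 0 of 18 in the main fit, became 1 with limma-voom (miR-1843-5p) and 1 with the rat as a random replicate block (miR-6315), and ranged from 0 to 2 without each rat. The random block used a within-rat correlation shared by all miRNAs and below that of each member. Within region they were 2 of 54 with the 12 libraries of a region alone, and 0 (without M170) to 4 (without M476) on leaving out 1 rat. With the rat as a fixed replicate block 3 of 54 differences between regions had an unadjusted p under 0.05. The fixed block was run for those differences only. Because M157 has no count, the log2 fold change of miR-6321 took the other sign with limma-voom (1.94 in abstinence and 2.18 in withdrawal against naïve) and with the random block (0.72 and 1.56). Without each rat it ranged from -0.97 to 0.12 and from -0.71 to 0.37, and that of miR-484 from -0.0087 to 1.24 (abstinence against withdrawal), -0.98 to 0.19 (withdrawal against naïve) and -0.73 to 1.20 (abstinence against naïve). In abstinence against naïve it ranged from -0.696 to -0.29 for miR-1843-5p, from -0.83 to -0.24 for miR-1839-5p and from -0.75 to -0.032 for miR-6315. The share by rat without the 2 farthest rats was 8.06% (miR-6321), 15.2% (miR-484), 30.4% (miR-6315), 21.1% (miR-1839-5p), 23.5% (miR-1843-3p) and 19.9% (miR-1843-5p). It was 17.9% for miR-6321 without M157 (84.3% at most, without M172), 49.4% for miR-484 on ranks and 71.1% for miR-1843-3p with library totals alone. With library totals alone 3 of 15 pairs of miRNAs passed, miR-484 with miR-6315 being added (r = -0.77). With group means kept, 0 of 15 pairs of miRNAs passed, with r of 0.78 for the arms of miR-1843 and 0.85 for miR-1839-5p and miR-1843-5p. With group means taken again and removed, these were 0.17 and 0.054 without M170 and M363, and 0.17 and 0.030 without the abstinence rats. The arm difference of abstinence against naïve was 0.58 with medians and ranged from 0.44 to 0.64 without each rat, with an exact permutation p of 0.0571 on leaving out an abstinence rat and 0.0286 on leaving out a naïve rat, and that of abstinence against withdrawal from -0.034 (without M154) to 0.18. Other causes of these shifts were not tested. Each group has 4 male rats with 1 library per region from dissected tissue, and miR-6315, at 7 to 71 counts, is limited by counting error.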
